A study of Mus musculus with 11 samples.

Results

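The Kruppel-like factors described here are Klf2, Klf3, Klf4, Klf6, Klf7, Klf10 and Klf13, followed through every open-chromatin peak whose nearest gene, as given in the authors' table, was one of the 7. These were 78 of 45508 peaks, and each gene had at least 1: Klf13 had 21, Klf2 and Klf3 16 each, Klf7 11, Klf6 6, Klf10 5 and Klf4 3. The assay was ATAC-seq, which uses the Tn5 transposase to insert sequencing adapters where DNA is accessible, and each of its 11 libraries was made from 10000 naive CD4 T cells. The cells came from spleen and lymph nodes of 3 untreated mice on a C57/BL6 background. All mice carried the Tg(Nr4a1-EGFP)GY139Gsat transgene, whose green fluorescence follows the promoter of Nr4a1 (Nur77), a gene induced by T cell receptor signalling, and the Foxp3tm1Flv allele, a red reporter of Foxp3. All cells were CD4+, negative for the red reporter and low for CD44. Population A was Nur77-GFP low and Ly6C+ (2 libraries, mice 1 and 3), population B Nur77-GFP intermediate and Ly6C+, population C Nur77-GFP intermediate and Ly6C negative, and population D Nur77-GFP high and Ly6C negative (3 libraries each, mice 1, 2 and 3). D and A therefore differ in both sort markers, whose effects cannot be told apart in that comparison. Values are reads in a peak that the authors scaled to a read total per library (rppm). This total, worked out from the spacing of the values, ran from 2597176 in D of mouse 1, the shallowest library, to 36859229 in D of mouse 3. By this estimate the listed peaks held 92.48% (D of mouse 3) to 94.7% (A of mouse 3) of it, so the scaling is nearly to the reads in peaks.

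Kruppel-like factors bind GC-rich and CACCC-type elements through zinc fingers at their carboxyl end, and activate or repress depending on the cofactors that the rest of the protein recruits. In naive T cells Klf2 maintains quiescence and keeps cells in circulation through the receptor gene S1pr1, and its expression is lost after strong activation. An open-chromatin peak shows that DNA is accessible. It does not measure transcription, and the nearest gene need not be the one that a distant peak regulates.

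The promoters are shown first, because in rppm they were the strongest peaks of these genes. Per kb of peak width, the Klf3 peak at +2.7 kb stood above the Klf3 promoter (73.4 and 50.9 rppm per kb in A). No difference between populations was called at the promoters in the main fit described below. The Klf4 promoter differed between C and D in an alternative fit, given with it. RefSeq promoter windows matched 6 of the 7 genes by symbol, all but Klf10, and were trimmed to the 250 bases before the start (GRCm38.p6, the assembly of mm10). Each of the 6 windows lay wholly inside a listed peak. The windows of Klf2 (chr8:72318812-72319061, plus strand), Klf3 (chr5:64803271-64803520, plus strand) and Klf13 (chr7:63938916-63939165, minus strand) follow 5′ to 3′. Capitals mark the GC box GGGCGG, the CACCC box CACCC and the Mef2 core (CTA, any 4 bases, TAG), found in the element that Mef2 factors bind, each searched on both strands.
Klf2: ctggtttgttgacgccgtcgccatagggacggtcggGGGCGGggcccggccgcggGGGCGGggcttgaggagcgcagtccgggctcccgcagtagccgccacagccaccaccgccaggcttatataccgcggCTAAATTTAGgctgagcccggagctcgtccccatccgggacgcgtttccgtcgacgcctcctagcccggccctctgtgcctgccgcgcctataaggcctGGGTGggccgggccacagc
Klf3: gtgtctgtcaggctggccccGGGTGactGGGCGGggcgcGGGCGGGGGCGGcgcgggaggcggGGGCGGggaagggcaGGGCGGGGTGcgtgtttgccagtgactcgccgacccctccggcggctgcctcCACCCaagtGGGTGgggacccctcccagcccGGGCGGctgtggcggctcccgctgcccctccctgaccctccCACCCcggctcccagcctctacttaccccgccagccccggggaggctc
Klf13: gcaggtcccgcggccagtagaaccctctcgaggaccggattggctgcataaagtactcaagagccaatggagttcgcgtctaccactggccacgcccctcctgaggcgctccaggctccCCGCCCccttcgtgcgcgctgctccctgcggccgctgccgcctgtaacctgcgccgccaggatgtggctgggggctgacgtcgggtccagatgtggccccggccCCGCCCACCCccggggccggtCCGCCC
The Klf3 window held 6 GC boxes and 5 CACCC boxes, with 1 of each overlapping at 1 place. The Klf13 window held 3 GC boxes and 1 CACCC box, which overlap at 1 place. The Klf2 window held 2 GC boxes, 1 CACCC box and 1 Mef2 core, the first base of which lies 118 bases before the start. Of 32851 promoter windows of the same length, 32.7% held a GC box, 52% a CACCC box and 3.2% a Mef2 core. All 6 windows had at least 1 GC box and only that of Klf2 had a Mef2 core, and the windows of Klf4 and Klf6 had 0 CACCC boxes. The GC share was 59.2% for Klf7 and 78.4% for Klf3, with 52.4% as the median of all windows. These matches describe the letters in each window and not the binding of a factor.

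The peaks at the annotated starts were open in all 4 populations. Per kb of peak width, Klf10 at -355 bp (94.1 rppm per kb in A and 91.2 in D), Klf13 (90.5 and 90.6) and Klf2 (89.8 and 79.3) stood highest. Klf7 (78.7 and 80.4) and Klf6 (77.4 and 75.1) followed, and Klf3 (50.9 and 42.6) and Klf4 (50.3 and 51.1) stood lower, as did another Klf10 peak at +376 bp (39 and 41.1). At Klf2 (chromosome 8, 72318575 to 72319758; annotated as intron, although it covers the start) the libraries of A read 110 and 103 rppm, those of B 113, 92.4 and 97.5, those of C 129, 96.6 and 88.6, and those of D 116, 82.6 and 83.0, for mice 1, 2 and 3 in turn (mice 1 and 3 in A). The groups overlapped, and the library of mouse 1 was the highest in each population. The same held in all 4 populations for the promoter peaks of Klf6, Klf7 and Klf13.

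None of the 8 peaks within 1 kb of a start was called in D against A by limma, a linear model on log2(rppm + 1) fitted to all 45508 peaks, where "called" means a Benjamini-Hochberg adjusted p under 0.05. The smallest limma adjusted p among the 8 was 0.305, at the Klf3 promoter, and 3.64% of all peaks within 1 kb of a start were called. The 95% intervals of the log2 difference ran from -0.21 to 0.25 at Klf4 and from -0.30 to 0.20 at Klf10 -355 bp, and the lowest and highest limits over the 8 peaks were -0.58 (Klf3) and 0.39 (Klf10 +376 bp). The Klf4 promoter (chromosome 4, 55532232 to 55533495) had 50.04, 49.6 and 56.4 rppm in C and 63.9, 60.2 and 69.6 in D. Every library of D lay above every library of C there, with a log2 difference of 0.31 (SE 0.10) that missed the threshold (limma adjusted p = 0.0823) and passed it with the mouse as a block (limma adjusted p = 0.00868).

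**Figure D1:**
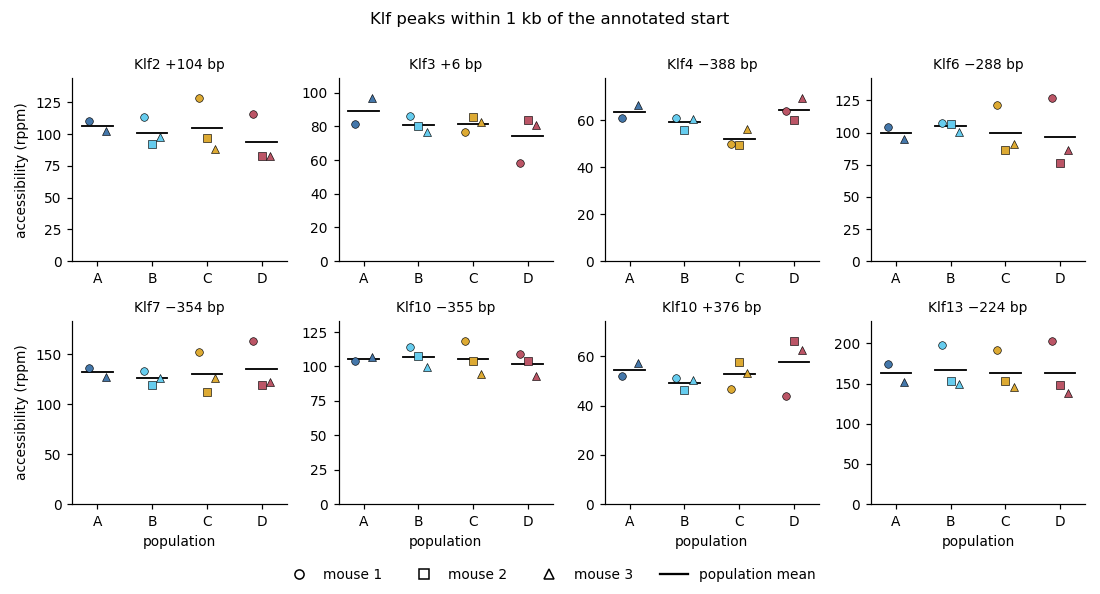
Accessibility in rppm (y axis, from 0) of the 8 Klf peaks within 1 kb of an annotated start, by population (x axis). Each point is 1 library, its shape gives the mouse and the line is the population mean; the libraries of A and D overlap at every one of the 8 peaks.

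Away from the starts, accessibility differed between D and A at 18 of the 78 peaks, 8 higher and 10 lower in D. This is 23.1% of the peaks of these genes, against 12.4% of all peaks in the table; 10.3% were higher and 12.8% lower, against 8.7% and 3.74%. With the mouse as a block 24 were called, 10 higher and 14 lower, against 21.2%, 12.5% and 8.79% of all peaks. The 18 were among the 70 peaks more than 1 kb from a start (25.7%, against 15.7% of all such peaks). The 8 higher peaks were weak in A, with 0.716 to 9.12 rppm, and lay 12.1 to 538 kb from the start. The 10 lower ones had 8.69 to 46.1 rppm in A and lay 2.73 to 60.5 kb from it. Log2 changes ran from 0.58 to 2.39 among the higher peaks and from -0.74 to -0.42 among the lower ones. The libraries of D and A did not overlap at 35 of the 78 peaks (14 higher and 21 lower in D), or 44.9%. Of all peaks, 37.3% did not overlap (19.3% higher and 18% lower in D). Over the 78 peaks the median log2 change was -0.12, and over all peaks -0.04. Fewer cells with an open site and less opening per cell cannot be told apart in these pooled libraries.

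The number of called peaks fell most in fits that left A with 1 library. Only mouse 3, whose libraries were the deepest of each population, was left out whole. Without B, C or D of mouse 3 alone, the number was 15, 16 or 16. It was 8 (7 higher, 1 lower) without A of mouse 1, 9 (6 and 3) without A of mouse 3, and 2 (both higher) without mouse 3 altogether, with 6.84%, 6.44% and 2.25% of all peaks called. In a fit of A and D alone it was 12 (7 higher, 5 lower; 8.27% of all peaks). All peaks called in those fits were also called with all 11 libraries.

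**Figure D2:**
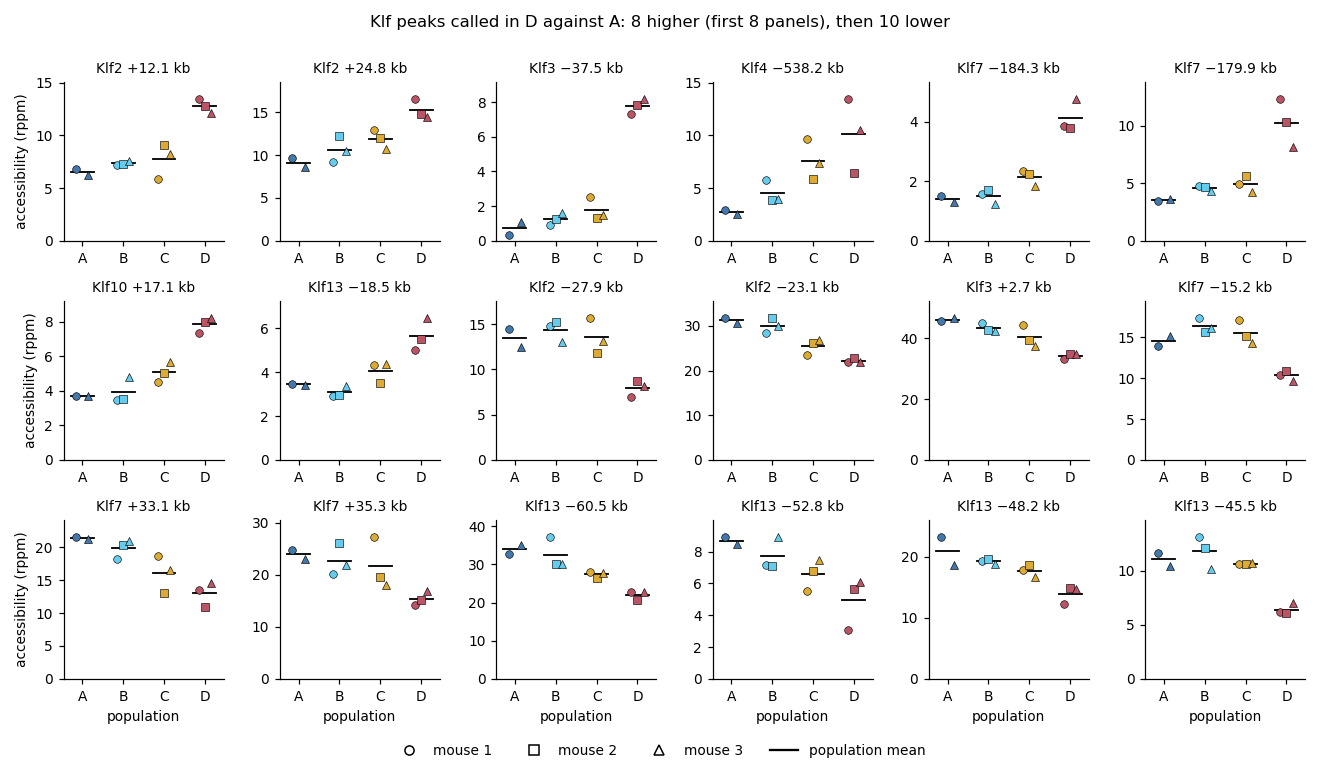
Accessibility in rppm (y axes, from 0) of the 18 called Klf peaks by population (x axis), 8 higher and then 10 lower in D; points are libraries, shapes give the mouse and lines the population mean. At every panel the libraries of D lie apart from those of A, and titles give the gene and the distance of the peak from its start.

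Klf2, the factor of naive T cell quiescence and recirculation, had 2 lower peaks upstream and 2 higher peaks downstream. The upstream peak at -27.9 kb (chromosome 8, 72290830 to 72291468, intergenic) had 14.5 and 12.5 rppm in A, 14.8, 15.2 and 13.0 in B, 15.7, 11.8 and 13.1 in C, and 6.93, 8.73 and 8.14 in D. The libraries of D stood below all 8 others. The log2 change was -0.70 against A (SE 0.16, limma adjusted p = 0.00815) and -0.70 against C (SE 0.14, limma adjusted p = 0.00783). The neighbour at -23.1 kb (chromosome 8, 72295480 to 72296422) fell from 31.2 ± 0.746 rppm (SD, n = 2) in A to 22.2 ± 0.527 (n = 3) in D (log2 -0.47, limma adjusted p = 0.00898), with 30.1 ± 1.71 in B and 25.5 ± 1.71 in C. The call at -27.9 kb was lost without A of mouse 1 (limma adjusted p = 0.119). The call at -23.1 kb was lost without either library of A (limma adjusted p = 0.0964 and 0.0646) and in a fit of A and D alone (limma adjusted p = 0.0597).

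The downstream peak at +12.1 kb of Klf2 (chromosome 8, 72330794 to 72331473, intergenic) had 6.85 and 6.24 rppm in A, 7.24, 7.33 and 7.58 in B, 5.89, 9.05 and 8.23 in C, and 13.5, 12.8 and 12.1 in D. All 3 libraries of D stood above the other 8, and A, B and C lay close together. It rose by a log2 of 0.87 against A (SE 0.17, limma adjusted p = 0.00296) and 0.68 against C (SE 0.15, limma adjusted p = 0.0151). The peak at +24.8 kb (chromosome 8, 72343595 to 72344186) rose from 9.12 ± 0.794 rppm in A to 15.3 ± 1.13 in D (log2 0.69, limma adjusted p = 0.00747), a call lost without A of mouse 3 (limma adjusted p = 0.104). It is 1 of 8 Klf2 peaks that lie inside the neighbouring gene Eps15l1, an endocytic adaptor. With the mouse as a block, 2 more of these 8, at +31.8 kb (15.7 ± 1.73 and 11.8 ± 0.311 rppm) and +46.6 kb (37.1 ± 4.92 and 29.5 ± 4.72), were called lower in D (limma adjusted p = 0.0242 and 0.0295). The other 12 of the 16 Klf2 peaks were not called without the block.

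Klf3, a repressor that recruits the corepressor CtBP, had the largest change of the 78 peaks. A peak 37.5 kb upstream of its start (chromosome 5, 64765788 to 64766236), annotated as intergenic and within an L2a repeat, had 0.326 and 1.11 rppm in A, 0.891, 1.26 and 1.60 in B, 2.55, 1.34 and 1.48 in C, and 7.32, 7.85 and 8.19 in D. The site was nearly closed in A and its lowest D library stood above the highest C library. Its log2 change was 2.39 (SE 0.24, limma adjusted p = 1.41e-05) against A and 1.68 (SE 0.21, limma adjusted p = 2.76e-04) against C. The values in A rested on 3 and 11 reads, and those in D on 19, 54 and 302. The next listed peak, 1.48 kb further upstream, was not called, with 16 rppm in A and 15 in D (log2 -0.11, 95% interval -0.47 to 0.25). The Klf3 promoter peak and the Klf3 peaks at +1.9 and +2.7 kb overlapped another protein-coding gene, Gm38457, as well as Klf3. In the first intron of Klf3, the peak at +2.7 kb (chromosome 5, 64805941 to 64806569) had 45.6 and 46.7 rppm in A and 33.1, 34.8 and 34.8 in D, and fell (log2 -0.42, SE 0.10, limma adjusted p = 0.0139). Populations B (43.4 ± 1.31) and C (40.4 ± 3.57) lay between them, and the call was lost without either library of A (limma adjusted p = 0.0899 and 0.125) and in a fit of A and D alone (0.0775). The other 14 Klf3 peaks were not called, of which 1 in the same intron, at +10.2 kb (16.7 ± 3.23 rppm in A and 12.5 ± 1.9 in D), was called lower with the mouse as a block (limma adjusted p = 0.0102).

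Over the 11 libraries, the 5 peaks of other genes (1 per gene, mean of at least 5 rppm) whose log2 values followed the Klf3 peak at -37.5 kb most closely lay near Gm6116, Mapre2, Snx10, Nlrc5 and Mmd. Their Pearson correlations with it were 0.982, 0.980, 0.979, 0.979 and 0.976. The libraries share their mice and populations, and 500 of the 35007 peaks considered had a correlation above 0.9.

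Klf4, which restrains proliferation, had its 1 called peak 538 kb upstream (chromosome 4, 56070157 to 56071130), in an intergenic LTR78 repeat and far from the gene to which it was assigned. This peak had 2.94 and 2.52 rppm in A, 5.79, 3.89 and 3.95 in B, 9.62, 5.86 and 7.38 in C, and 13.5, 6.40 and 10.5 in D. In mouse 1 and in mouse 3 the value was higher at each step of the sort, and the libraries of C and D overlapped. The log2 change of D against A was 1.53 (SE 0.27, limma adjusted p = 0.00151), and that of D against C 0.34 (limma adjusted p = 0.569). Klf6, an early-response factor, had 6 peaks between its promoter and its transcript end, and none was called by limma. Its peak at +3.0 kb in the first intron had 50.1 and 45.6 rppm in A and 43.1, 37.5 and 36.7 in D (log2 -0.29, limma adjusted p = 0.144), and was called with the mouse as a block (limma adjusted p = 0.0413).

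Klf7, a family member first described as ubiquitously expressed, had 5 called peaks of 11, in 2 places with opposite directions. Far upstream, the peak at -179.9 kb (chromosome 1, 64301072 to 64301527) had 3.48 and 3.62 rppm in A, 4.79, 4.69 and 4.35 in B, 4.91, 5.66 and 4.26 in C, and 12.3, 10.3 and 8.11 in D. The one at -184.3 kb (chromosome 1, 64305575 to 64305876) had 1.52 and 1.31 in A, 1.56, 1.72 and 1.24 in B, 2.36, 2.26 and 1.84 in C, and 3.85, 3.78 and 4.78 in D. At both, each library of D stood above the other 8. Their log2 changes against A were 1.29 (SE 0.18, limma adjusted p = 2.72e-04) and 1.08 (SE 0.17, limma adjusted p = 7.12e-04), and against C 0.91 (limma adjusted p = 0.00373) and 0.70 (limma adjusted p = 0.0147). Between these peaks, 1.72 kb from the first, a peak at -181.6 kb was not called (12.9 and 11.8 rppm in A and D, log2 -0.13, 95% interval -0.43 to 0.18). Further out, the peak at -187.3 kb (12.5 ± 2.68 rppm in A and 17.4 ± 1.97 in D) was called higher only with the mouse as a block (limma adjusted p = 0.00278).

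Near the Klf7 gene the called peaks were lower in D. The peak at -15.2 kb (chromosome 1, 64136034 to 64137226, with a CTG repeat) had 13.9 and 15.1 rppm in A, 17.4, 15.7 and 16.2 in B, 17.1, 15.1 and 14.3 in C, and 10.4, 10.9 and 9.69 in D. The 8 libraries of A, B and C lay together and the 3 of D below them (log2 against A -0.45, SE 0.13, limma adjusted p = 0.0327; against C -0.54, SE 0.12, limma adjusted p = 0.0122). In the first intron, the peaks at +33.1 kb (chromosome 1, 64087845 to 64088804) and +35.3 kb (chromosome 1, 64085693 to 64086438) fell from 21.4 ± 0.208 to 13 ± 1.9 rppm (log2 -0.69, limma adjusted p = 0.0105) and from 23.9 ± 1.23 to 15.4 ± 1.38 rppm (log2 -0.60, limma adjusted p = 0.0291). Each of the 3 calls was lost without either library of A. The limma adjusted p values without A of mouse 1 and of mouse 3 were 0.113 and 0.25 at -15.2 kb, 0.0898 and 0.0816 at +33.1 kb, and 0.21 and 0.122 at +35.3 kb. The call at -15.2 kb was also lost without B of mouse 3 (0.0555), without D of mouse 3 (0.0973) and in a fit of A and D alone (0.13), and that at +35.3 kb without D of mouse 2 (0.064).

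Klf10, which is induced by TGF-beta and feeds back on that pathway, had 1 called peak of 5. At +17.1 kb (chromosome 15, 38282426 to 38283145, intergenic) the libraries read 3.70 and 3.73 rppm in A, 3.45, 3.55 and 4.79 in B, 4.51, 5.04 and 5.65 in C, and 7.32, 7.999 and 8.22 in D. D stood above all others and B overlapped with both A and C. The log2 change against A was 0.91 (SE 0.17, limma adjusted p = 0.00239), and that against C was 0.55 (SE 0.15, limma adjusted p = 0.0502), which missed the threshold and passed it with the mouse as a block (limma adjusted p = 0.0198). Its neighbour 1.26 kb away had 11 rppm in A and 13.3 in D and was not called (log2 0.25, 95% interval -0.11 to 0.60).

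Klf13, which activates the chemokine gene Ccl5 in late-activated T cells, had 5 called peaks of 21, of which 4 were lower and lay upstream, 45.5 to 60.5 kb from the start. The one at -45.5 kb (chromosome 7, 63984197 to 63984633) had 11.6 and 10.5 rppm in A, 13.1, 12.1 and 10.2 in B, 10.6, 10.6 and 10.7 in C, and 6.16, 6.11 and 7.0 in D. The libraries of D lay below the other 8 (log2 against A -0.70, SE 0.15, limma adjusted p = 0.00504; against C -0.65, SE 0.13, limma adjusted p = 0.00808). The one at -60.5 kb (chromosome 7, 63998881 to 63999953) stepped down through the sort, with 33.9 ± 1.55 rppm in A, 32.5 ± 4.09 in B, 27.4 ± 0.879 in C and 22.1 ± 1.21 in D (D against A log2 -0.60, SE 0.12, limma adjusted p = 0.00357). The peaks at -48.2 kb (chromosome 7, 63986765 to 63987394; 21 ± 3.22 to 14 ± 1.43 rppm, limma adjusted p = 0.0125) and -52.8 kb (chromosome 7, 63991489 to 63991969; 8.69 ± 0.327 to 4.95 ± 1.64 rppm, limma adjusted p = 0.0457) fell as well. In this stretch, from -42.9 to -62.9 kb and picked out after its values were seen, all 7 listed peaks had negative log2 estimates, from -0.74 to -0.24, and 4 were called.

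Several Klf13 calls were fragile. Without A of mouse 1 limma did not call -45.5 kb (adjusted p = 0.0778) or -48.2 kb (adjusted p = 0.213), and without A of mouse 3 it did not call -60.5 kb (adjusted p = 0.0598). In a fit of A and D alone, -48.2 kb was not called (limma adjusted p = 0.0848). The call at -52.8 kb was lost in 11 of 18 other settings, which left out in turn A of mouse 1 or 3 (limma adjusted p = 0.24 and 0.186), B of mouse 1, 2 or 3, C of mouse 2 or 3 (0.0568 to 0.0648 over these 5), D of mouse 1 (0.0846), whose value rested on 8 reads, all of mouse 3, peaks under a mean of 5 rppm, or B and C. The 1 higher peak, at -18.5 kb (chromosome 7, 63957082 to 63957802), had 3.48 and 3.42 rppm in A, 2.90, 2.98 and 3.39 in B, 4.32, 3.50 and 4.40 in C, and 5.01, 5.53 and 6.48 in D (log2 0.58, limma adjusted p = 0.0365). Its call was lost in 9 settings: without A of mouse 1 or 3, B of mouse 2 or 3, C of mouse 3, D of mouse 2 or 3, mouse 3 altogether, or B and C. Where A kept its 2 libraries, the limma adjusted p in these settings was 0.0513 to 0.121. A minimum mean of 5 rppm left this peak out, with a mean of 4.13 rppm. With the mouse as a block the strong peak at -73.0 kb, with 54.7 and 47.8 rppm in A and 75.5, 57.6 and 62.6 in D, was called higher (limma adjusted p = 0.00185), in place of a limma adjusted p of 0.173 without it.

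**Figure D3:**
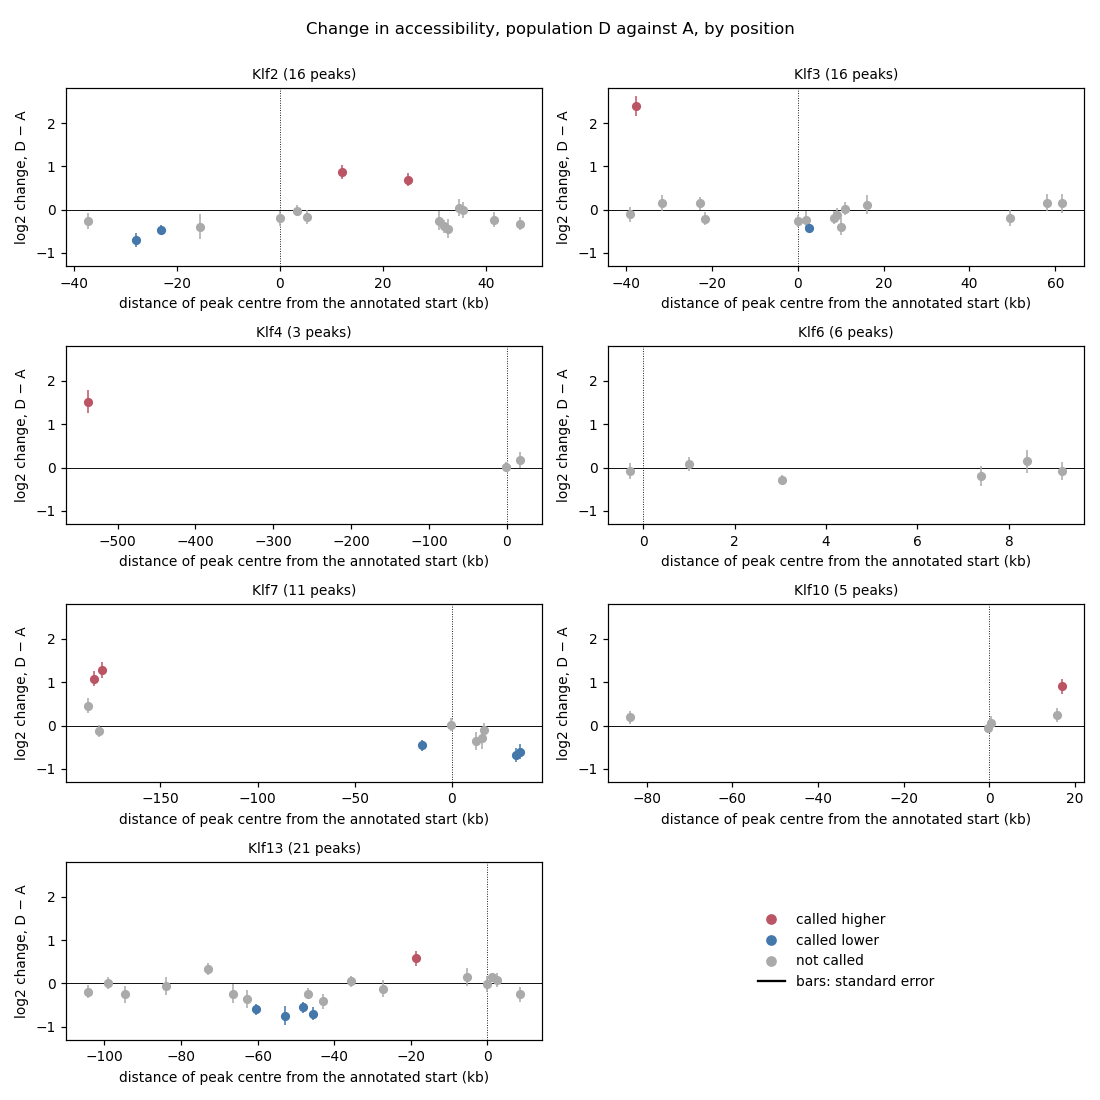
Log2 change of D against A (y axis, on log2 of rppm + 1, bars 1 standard error) against the distance of each peak's centre from the annotated start of its gene in kb (x axis, negative is upstream), 1 panel per gene. The 18 peaks called higher or lower all lie more than 1 kb from the starts.

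For 13 of the 18 called peaks, the nearest listed peak of the same gene was not called, as were 60 of the 78 peaks in all, and for the other 5 it was called in the same direction. By the authors' annotation 14 of the 18 were intergenic (77.8%, against 41.5% of all called peaks) and 4 intronic, where 41 of the 78 were intergenic (52.6%, against 32.3% of all peaks), 27 intronic, 6 at a promoter, 2 at a transcript end and 2 in the 3′ UTR of Klf6. Repeats or low-complexity sequence were annotated at 3 of the 18 and at 12 of the 78 (15.4%, against 13.8% of all peaks). All 8 higher peaks had under 10 rppm in A, as had 86.2% of all higher peaks of the table, and 1 of the 10 lower peaks had, against 40% of all lower ones.

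The steps of the sort differed in how many Klf peaks passed the test. In B against A, which raises the reporter among Ly6C+ cells, and in C against B, which changes Ly6C at an intermediate reporter, limma called 0 of the 78 peaks, where 0 and 0.0022% of all peaks were called. At an unadjusted p under 0.05 there were 1 and 4 of 78, against 2.68% and 4% of all peaks. Between C and D, both Ly6C negative and differing in the reporter, 7 of the 78 were called (8.97%, against 6% of all peaks), 4 higher and 3 lower (4.51% and 1.49% of all peaks). They were the peaks described above at Klf2 (-27.9 and +12.1 kb), Klf3 (-37.5 kb), Klf7 (-184.3, -179.9 and -15.2 kb) and Klf13 (-45.5 kb). With the mouse as a block 15 were called in this step, 6 higher and 9 lower (11.4% of all peaks), and without mouse 3 only 1 (0.888% of all peaks). Beside the 7, the block added the Klf4 promoter and Klf10 at +17.1 kb, both higher and given above, and 6 lower peaks. These 6 were Klf2 at +32.6, +41.5 and +46.6 kb (limma adjusted p = 0.0153, 0.0268 and 0.0405), Klf7 at +35.3 kb (0.0439) and Klf13 at -60.5 and -42.9 kb (0.0352 and 0.0302). With only C and D in the model 4 were called (3.13% of all peaks).

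Among the 18 peaks called in D against A, the step from C to D was the largest of the 3 in that direction at 15, where it was so at 77.9% of all called peaks. The exceptions were the Klf4 peak at -538.2 kb, the Klf7 peak at +33.1 kb and the Klf2 peak at -23.1 kb, where the step from B to C was larger. A test of whether the step from C to D differed from that from A to B called none of the 78 peaks by limma (0.631% of all peaks were called), and the smallest adjusted p was 0.107, at the Klf7 peak at -15.2 kb. The comparisons D against A and D against C share the libraries of D. Any difference among the 4 populations was called by limma at 16 of the 78 peaks (20.5%, against 9.64% of all peaks).

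**Figure D4:**
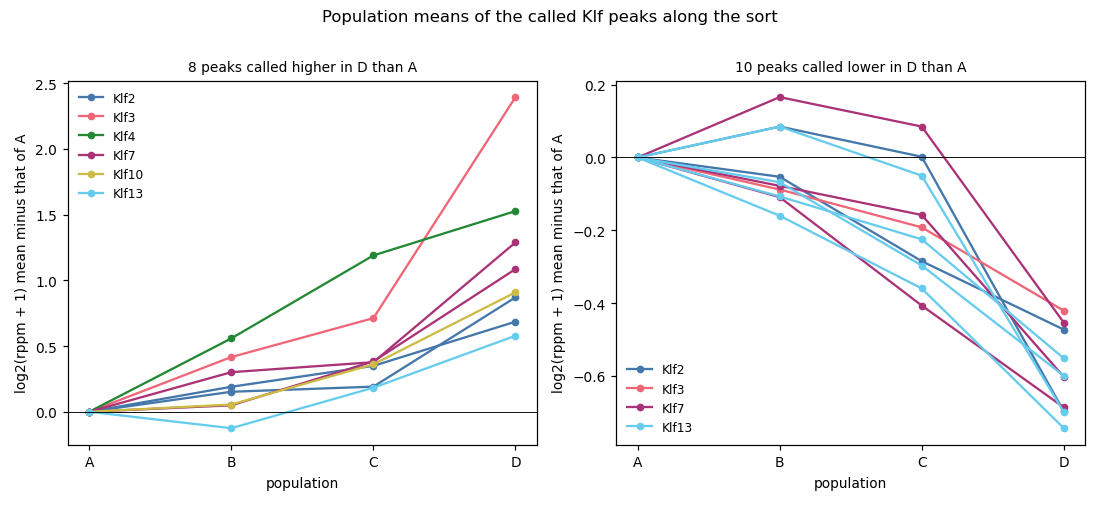
Mean log2(rppm + 1) of each population minus that of A (y axis) along populations A to D (x axis) for the 8 Klf peaks called higher and the 10 called lower in D than in A; each line is 1 peak, coloured by gene, and the y axes of the panels differ. The step from C to D is the largest for 15 of the 18 lines, and for Klf4 the step from B to C is.

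The rest of the family, genes on which these factors act and genes that act on them were read from fixed lists. Of the 19 other Klf and Sp factors, 15 had 54 peaks, of which 6 were higher and 0 lower in D than in A (11.1%, against 12.4% of all peaks; median log2 -0.08). They lay near Klf12, Klf8, Klf9 and Klf5. Klf12, a CtBP-binding repressor, had 3 of its 4 peaks called, the strongest at 134.9 kb upstream (0.629 ± 0.0346 to 4.41 ± 1.18 rppm, limma adjusted p = 1.03e-04). The Klf9 peak lay 83.9 kb upstream (1.99 ± 0.109 to 5.42 ± 1.07 rppm). Unlike the called peaks of the 7 genes, those of Klf8 and Klf5 lay within 1 kb of a start. They were Klf8 at +365 bp (0.95 ± 0.347 to 3.57 ± 0.154 rppm) and Klf5 at +162 bp (7.09 ± 0.647 to 12.1 ± 0.22 rppm, limma adjusted p = 0.0396). None of the 37 peaks of the 8 Sp factors with peaks was called by limma. The Klf5 call was lost in 11 settings, those without any 1 library other than C of mouse 1 and C of mouse 2 among them (limma adjusted p = 0.051 to 0.412 where lost). The 10 reported targets had 89 peaks, 5 higher and 2 lower (7.87%; median log2 -0.05). S1pr1, which encodes the receptor for egress from lymph nodes, had 3 higher and 2 lower of 29. Its peak at +38.9 kb rose from 2.44 ± 0.68 to 8.1 ± 1.87 rppm (limma adjusted p = 0.00465), a call lost without A of mouse 1 (log2 1.19). S1pr4 had 1 higher of 5, annotated as intron but 8.0 kb upstream of its start (4.55 ± 0.175 to 8.58 ± 1.92 rppm, limma adjusted p = 0.0176). This S1pr4 call was lost without A of mouse 1 (log2 0.80) or 3 (log2 0.74). It was also lost in a fit of A and D alone (limma adjusted p = 0.0587). The 1 peak of Ccl5, the target of Klf13, was intergenic, 19.9 kb upstream and in an L1 repeat. It rose from 1.11 ± 0.282 to 6.79 ± 0.474 rppm (limma adjusted p = 8.52e-05). Itgb7, an integrin chain used in homing, had 0 called of 4 by limma, and Ccr7, a chemokine receptor of naive T cells, had 0 of 22.

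Of the 11 upstream regulators and cofactors, with 82 peaks, 4 peaks were higher and 1 lower (6.1%; median log2 -0.05). Tgfbr2, a chain of the TGF-beta receptor that induces Klf10, had a peak in an intron that rose from 8.31 ± 1.93 to 37.5 ± 2.11 rppm (limma adjusted p = 1.81e-06), and Tgfbr1, the other chain, had one at 30.6 kb upstream that rose from 2.52 ± 0.286 to 9.26 ± 2.41 rppm (limma adjusted p = 1.74e-04). Foxo1, the factor that drives Klf2 in resting T cells, had 1 higher peak (6.78 ± 0.665 to 15.1 ± 1.65 rppm, limma adjusted p = 3.77e-04) and 1 lower of 27, and Kat2b, an acetyltransferase that Klf factors bind, had 1 higher of 8 (2.19 ± 0.324 to 8.86 ± 0.705 rppm). Without mouse 3, which left A with 1 library, the calls at these peaks of Foxo1 (log2 1.16) and Tgfbr1 (1.48) were lost. So were those given above for Klf8 (1.03), Klf9 (0.96), S1pr1 (1.58) and S1pr4 (0.84). Mef2d and Mapk7, which act on the Mef2 element of the Klf2 promoter, had 0 called of 7 and of 1, and the CtBP genes Ctbp1 and Ctbp2 had 0 of 2 and of 1.

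Markers of the gate and of other cells moved in part with the same comparison. Peaks were listed for 7 of 10 T cell markers, Cd3e and Cd4 among them, and none for Trac, Trbc1 or Trbc2; their summed level was 739 to 748 rppm in A and 706 to 774 in D, with 3 higher and 2 lower of 46. The B cell markers Ms4a1 and Pax5 had no listed peak, and the 4 peaks of Cd79a and Cd79b summed to 37.5 to 43.6 rppm in A and 29.3 to 42 in D, with 0 called by limma. Lyz2 and Csf1r had no listed peak, and the 14 peaks of the other 4 myeloid markers summed to 88.3 to 88.9 and 68.9 to 81.9 rppm, with 1 higher and 2 lower. The CD8 T and NK list (5 of 6 genes with peaks) summed to 495 to 521 and 436 to 546 rppm, with 2 higher and 2 lower of 20. The regulatory T cell list, with all 4 genes having peaks, summed to 424 to 448 rppm in A and 532 to 575 in D. Of its 37 peaks 14 were higher and 3 lower (45.9% called, against 12.4% of all peaks). Ikzf2 had 8 higher and Ctla4 5, while Il2ra had 1 higher and all 3 lower. The Ikzf2 peak at +141.5 kb rose from 0.105 ± 0.00566 rppm in A to 11.7 ± 3.92 in D (limma adjusted p = 1.65e-06). At +4.5 kb of Ctla4 the rise was from 2.7 ± 0.74 to 23 ± 0.727 rppm (limma adjusted p = 4.81e-07). The Il2ra peak at -7.0 kb fell from 37.1 ± 0.474 to 17.8 ± 2.16 rppm (limma adjusted p = 9.89e-05), and the 1 peak of Foxp3 was not called. The memory and effector list (3 of 5 genes with peaks) summed to 306 to 328 rppm in A and 345 to 374 in D, with 8 higher and 1 lower of 25 (36% called). Whether cells of any of these types contributed to the Klf values was not tested.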

How the data were processed

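The deposited table gives, per the file headers, rppm values (RPM: reads in a peak scaled by the authors to a read total per library) for 45508 peaks in 11 libraries. It also gives position, annotation and nearest gene. The submitters' processing notes name Bowtie, MACS2 and mm10. Read filters, peak merging, the denominator and the annotation tool are not given in the sources used here. Every listed peak had at least 1 rppm in at least 3 libraries. A site that reached this only in A, with 2 libraries, is therefore not listed, and one that did so only in D can be. This bears on the shares of peaks called higher and lower in D, and its size was not tested. Coordinates are as deposited, and whether starts count from 0 or 1 is not stated. Values were whole multiples of 1 step per library (100% within 6e-04 rppm), which gave the totals and read numbers quoted. These are estimates, and another check of the steps did not accept them for 4 libraries (D of mouse 2, and A, C and D of mouse 3). Reads carry no molecular identifiers, and how duplicate reads were treated is not known, so counting error is a lower limit of their error.

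The fit used limma 3.58.1 (R 4.3.3) on log2(rppm + 1), with a mean for each population, the 11 libraries fitted together, trended variances, two-sided tests and Benjamini-Hochberg adjustment over all peaks. It was run on simulated data with independent libraries, 1 fixed spread and no mouse effect. That run cannot show how the fit deals with libraries that share a mouse. Same-numbered libraries come from 1 mouse. Their deviations from population means correlated at 0.183 to 0.556 (15 pairs), and at -0.433 to 0.203 between mice (30 pairs). The mouse block is therefore given where it changes a call in D against A or D against C. The main fit has no mouse term. Its p-values rest on the spread of the 11 libraries around their population means and treat libraries of 1 mouse as independent. With the block they rest on the spread left after mouse differences are removed. There were 3 mice, of which A had 2. Members and lists were chosen with earlier results of these data known. Named peaks were, per gene, the promoter peak, up to 3 called peaks with the smallest adjusted p in D against A, and the best called peak per step (19 peaks). The Klf2 start peak and the other peaks given with values were added after their values were seen. The test of the difference between steps was added likewise. Sequences are from RefSeq (GRCm38.p6). Entrez identifiers of 45447 peaks (99.9%) matched its gene table. Some genes of the lists are not reported here by name.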

Additional observations from a re-analysis of the deposited data

How the results depend on the processing

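Of the 18 Klf peaks called in D against A, all 18 were called by limma with the mouse as a block (24 in all, 10 higher and 14 lower), with pseudocounts of 0.25 and 5 rppm and with median-of-ratios scaling, and 14 with a minimum mean of 5 rppm, which removed 3 and lost Klf13 at -52.8 kb. Leaving out 1 library gave 8 to 18 calls in D against A, 5 to 9 in D against C, 10 to 17 for any difference (10 without A of mouse 1, B of mouse 3 or D of mouse 3), and 0 in B against A and in C against B. Without mouse 3 there were 2, 1 and 1 calls for D against A, D against C and any difference. With the mouse block (the pairing of libraries by mouse), D against C had 15 calls and any difference 25. With only the 2 populations compared in the model, D against A had 12 calls (7 higher, 5 lower) and D against C had 4. Klf7 at -179.9 kb was called in all 18 settings run for single peaks, and Klf3 at -37.5 kb in each setting but the minimum mean, which left it out with a mean of 3.08 rppm. Among the 19 named peaks, log2 estimates of D against A changed sign only at promoter peaks near 0, none called. With 1 library left out they ran from -0.041 to 0.083 at Klf4, from -0.29 to 0.077 at Klf6, from -0.13 to 0.099 at Klf7, from -0.095 to 0.016 at Klf10 and from -0.18 to 0.093 at Klf13. With the block Klf6 was at 0.001 and Klf13 at 0.038, and without mouse 3 Klf10 was at 0.034. The cause of these differences was not tested; fits with fewer libraries have larger errors by construction. The mouse block changed no call of D against A other than the 6 gained. The planned tests on whole read numbers (edgeR and DESeq2) were not run. At 10 rppm a peak held 26 reads in D of mouse 1 and 369 in D of mouse 3, which limits the weak peaks most.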
